A study of Schmidtea mediterranea with 24 samples.

Results

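Intact planarians were compared after a course of RNA interference (RNAi) against myoD and after a control course of the same length, and the whole transcript table was read for that pair. The libraries were chosen by their titles alone, as 6 myoD RNAi animals and 6 control animals, 12 of the 24 libraries in the series. All 26563 contigs of the count table were considered. Of these, 533 had no count in any of the 12 libraries, 9678 others fell below the filter on low counts, and 16352 were tested. The tested contigs held at least 99.81% of the counts of every library.

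All animals were the asexual CIW4 strain of Schmidtea mediterranea, a freshwater flatworm, sampled as single whole animals with 1 library each. Both groups were fed liver carrying in vitro transcribed double-stranded RNA (dsRNA) on 10 occasions over 7 weeks. The dsRNA matched myoD in one group and the nematode (Caenorhabditis elegans) gene unc-22 in the other, so the controls also went through feeding and exposure to dsRNA. A second experiment in the series, used below only where it shows how the myoD response differs, set 7 nkx1-1 RNAi animals against 5 unc-22 controls of their own after 12 feedings over 9 weeks. The extraction text of the records speaks of tail wounds pooled per replicate, whereas the title, the design and the tissue label give single intact animals. The latter is followed here, and under the former each library would stand for several wounds.

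MyoD is a basic helix-loop-helix transcription factor of the muscle lineage. In planarians it is known for its role in the longitudinal fibres of the body wall, while nkx1-1 is known for the circular fibres. Planarian body-wall muscle also expresses the secreted signals that give cells their position, and all tissues are renewed continuously from dividing stem cells called neoblasts. During weeks of RNAi in an uninjured animal, new tissue is therefore made while the factor is targeted. Neither the turnover nor the loss of the factor was measured here. Each library is RNA of a whole animal, in which fewer cells of a type and less RNA per cell cannot be told apart.

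No file used here gives gene names for the contig IDs. The level of myoD itself, the markers of muscle or any other cell type, and gene groups are for that reason not given, and the labelled tissue was not checked against markers. Each value belongs to a contig of a transcript assembly, which can be part of a gene or share reads with similar contigs. Library totals ran from 13597429 to 17375822 counts in the controls and from 13459642 to 17331669 after myoD RNAi, and their means differed by less than the spread between animals (two-sided exact permutation p = 0.517, adjusted over 3 library measures 0.639).

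The response to myoD RNAi was broad in number, small in size and tilted upwards. Of the tested contigs 1232 changed, which is 7.53%. They comprised 844 that rose (5.16% of those tested) and 388 that fell (2.37%), by the quasi-likelihood test of edgeR at an adjusted p under 0.05. The median log2 fold change was 0.41 among the contigs that rose and −0.28 among those that fell, beside −0.01 over all 16352. Under 1.25-fold lay 342 of the rises and 225 of the falls, and between 1.25-fold and 1.5-fold another 204 and 112. Rises outnumbered falls in every size class, most of all between 1.5-fold and 4-fold. From 1.5-fold to 2-fold there were 204 rises and 34 falls, from 2-fold to 4-fold 82 and 12, and at 4-fold or more 12 and 5. Changes of at least 2-fold made up 0.679% of the tested contigs.

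**Figure D1:**
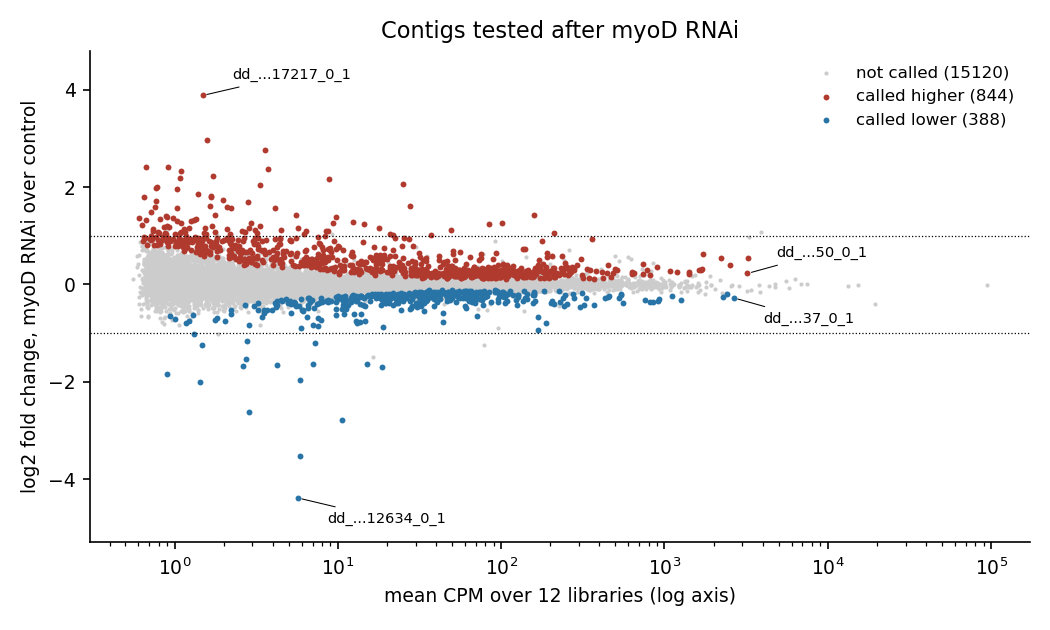
Log2 fold change after myoD RNAi against mean level in CPM (counts per 1e6 counts of the library, log axis) for the 16352 tested contigs, with contigs called higher in red, called lower in blue and the others in grey; dotted lines mark a 2-fold change. The 844 rises reach their greatest folds at low levels, and the 17 falls of at least 2-fold are few and scattered.

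Expressed as a share of the scaled counts, the contigs that rose made up 6.5% in controls and 8.14% after myoD RNAi. Those that fell made up 3.89% and 3.19%. Levels are given as CPM scaled by TMM factors. The 844 contigs that rose summed to 64985 ± 1680 CPM in controls and 81424 ± 1950 CPM after myoD RNAi (SD, n = 6 each). The 388 that fell went from 38883 ± 1290 to 31872 ± 1080 CPM (SD, n = 6 each). These sums were taken over contigs chosen on the same animals and are a description. The 94 contigs that rose at least 2-fold, 0.575% of those tested, held 565 ± 68.0 CPM in controls and 1360 ± 81.3 CPM after myoD RNAi. The 17 that fell at least 2-fold, 0.104% of those tested, held 153 ± 55.7 and 41.0 ± 6.25 CPM.

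For most contigs the data bounded the change closely, called or not. The 95% interval of the fold change lay wholly inside 2-fold in either direction for 15771 contigs, 96.4% of those tested, and inside 1.5-fold for 13919, or 85.1%. Among the 15120 contigs that were not called, 14821 had intervals that exclude a 2-fold change. The whole interval lay beyond 2-fold for 51 contigs, 38 of them higher. These intervals are per contig and not adjusted for the number of contigs.

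The tilt towards rises was steepest among scarce contigs. The tested contigs were split into 4 equal classes by mean level over the 12 libraries. In the lowest class, from 0.558 to 3.95 CPM, 234 rose and 27 fell. In the next class, up to 14.1 CPM, the counts were 144 and 92, and in the third, up to 40.4 CPM, 137 and 116. The most abundant class had 329 rises and 153 falls with small folds, a median log2 fold change of 0.25 for the rises and −0.24 for the falls. Rises of at least 2-fold numbered 70 in the lowest class and 5 in the highest. The median half-width of the 95% interval shrank from 0.40 to 0.09 on the log2 scale over the same classes, so a given small change was easier to call at higher levels. Over all contigs of the lowest class, called or not, 57.3% had a fold change above 0 on the log2 scale, against 41.0%, 38.7% and 47.3% in the others. A contig scarce in the controls could pass the filter on low counts through the myoD RNAi libraries alone, and the reverse held for falls. How many contigs entered in this way was not counted, so the figures of the lowest class are a description.

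More contigs were detected in the myoD RNAi animals. At a minimum of 1 CPM, replicates 1 to 6 of the controls had 15247, 15235, 15268, 15486, 15279 and 15172 contigs. The myoD RNAi animals had 15529, 15520, 15479, 15584, 15415 and 15413. All myoD RNAi animals lay above 5 of the 6 controls, and control replicate 4 lay within their range. The means were 15281 ± 107 and 15490 ± 67.7 (SD, n = 6 each), a difference of 209 contigs (two-sided exact permutation p = 0.00866, adjusted over 3 library measures 0.0260). The depth of a library bears on such a count, so every library was also thinned to 13459642 counts, a step added after the data were seen. The controls then had 15182 to 15393 contigs and the myoD RNAi animals 15413 to 15568, without overlap (two-sided exact permutation p = 0.00216). With a single count taken as detection at that depth, the means were 22741 and 23192 contigs, also without overlap.

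**Figure D2:**
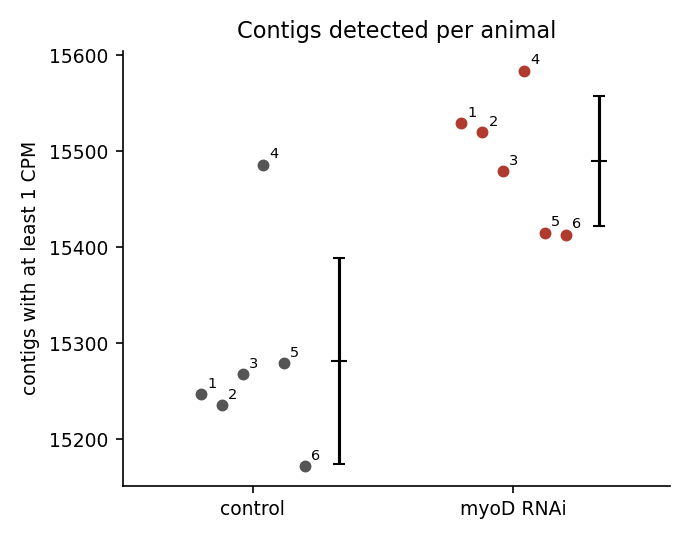
Number of contigs with at least 1 CPM in each control and myoD RNAi animal, labelled by replicate number, with the mean and SD of each group beside the points (the vertical axis does not start at 0). All 6 myoD RNAi animals lie at 15413 or above, and among controls only replicate 4 does, at 15486.

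The same tilt appeared at the limit of detection. Among all contigs of the table, 467 had no count in any control and some count after myoD RNAi, 127 of them in at least 3 of the 6 animals. In the reverse direction 291 had no count in any myoD RNAi animal, and 29 of those were counted in at least 3 controls. None of these contigs passed the filter on low counts, and the totals over 6 libraries reached at most 70 and 11 counts. These absences were read without thinning to equal depth, so the depth of the libraries bears on them, and its part was not tested. At the 1 CPM minimum, 11 contigs were below it in all controls and above it in all myoD RNAi animals, and 1 contig did the opposite. The share of counts taken by the 100 most abundant contigs of a library was 33.5% ± 0.859 in controls and 33.3% ± 0.627 after myoD RNAi (SD, n = 6 each; two-sided exact permutation p = 0.639, adjusted 0.639).

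Among the 517 contigs that rose, had no overlap between groups and averaged at least 1 CPM, dd_Smed_v4_17217_0_1 had the greatest fold. In control replicates 1 to 6 it stood at 0.149, 0.0686, 0.211, 0.201, 0.282 and 0.174 CPM. In the myoD RNAi animals it stood at 2.26, 2.15, 4.11, 3.48, 1.85 and 2.96 CPM. Every control was near the limit of detection, with 1 to 4 counts, and every myoD RNAi animal had 32 to 57. The log2 fold change was 3.88 ± 0.31 (SE; edgeR adjusted p = 1.80e-07), with a 95% interval of 3.23 to 4.53. This contig passed the filter on low counts through the myoD RNAi libraries alone. Each contig named here and below was chosen for its change in these same animals, so its p-value and interval are a description. Of the 517 contigs, the 10 with the greatest folds ran down to a log2 fold change of 1.85, and their control means lay between 0.181 and 9.52 CPM.

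Among the same 517 contigs without overlap, the leading rise by absolute level was dd_Smed_v4_50_0_1, an abundant contig with a small fold. It measured 2835, 2800, 3047, 3086, 3005 and 3052 CPM in the controls. It measured 3570, 3369, 3461, 3496, 3411 and 3528 CPM after myoD RNAi, so that the lowest treated animal exceeded the highest control by more than the controls' SD of 122 CPM. The mean rose by 502 CPM, or by 0.23 ± 0.03 (SE) on the log2 scale (edgeR adjusted p = 0.000140). Its 95% interval ran from 0.16 to 0.29.

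Among the 193 contigs that fell under the same conditions, dd_Smed_v4_12634_0_1 dropped furthest. The controls held 11.3, 11.4, 11.6, 9.89, 11 and 10.1 CPM. The myoD RNAi animals held 1.03, 0.201, 0.216, 0.489, 0.674 and 0.379 CPM. The controls were tightly grouped and the treated animals were all near 0, although replicate 1 kept several times the level of replicates 2 and 3. The log2 fold change was −4.39 ± 0.18 (SE; edgeR adjusted p = 6.22e-11), which leaves 4.78% of the control level. Whether this contig belongs to myoD was not tested.

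Among the same 193 contigs without overlap, the leading fall by absolute level was dd_Smed_v4_37_0_1. Its values were 2980, 3143, 2938, 2760, 2704 and 2965 CPM in the controls. After myoD RNAi they were 2292, 2416, 2703, 2424, 2204 and 2397 CPM. The groups did not overlap, but treated replicate 3 and control replicate 5 lay within 1 CPM of each other. The log2 fold change was −0.28 ± 0.05 (SE; edgeR adjusted p = 0.000688), and in a joint fit of all 24 libraries the adjusted p was 0.0746. The ratios of means in the authors' deposited table were 15.4, 1.16, 0.0456 and 0.823, in the order in which the 4 contigs are described.

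**Figure D3:**
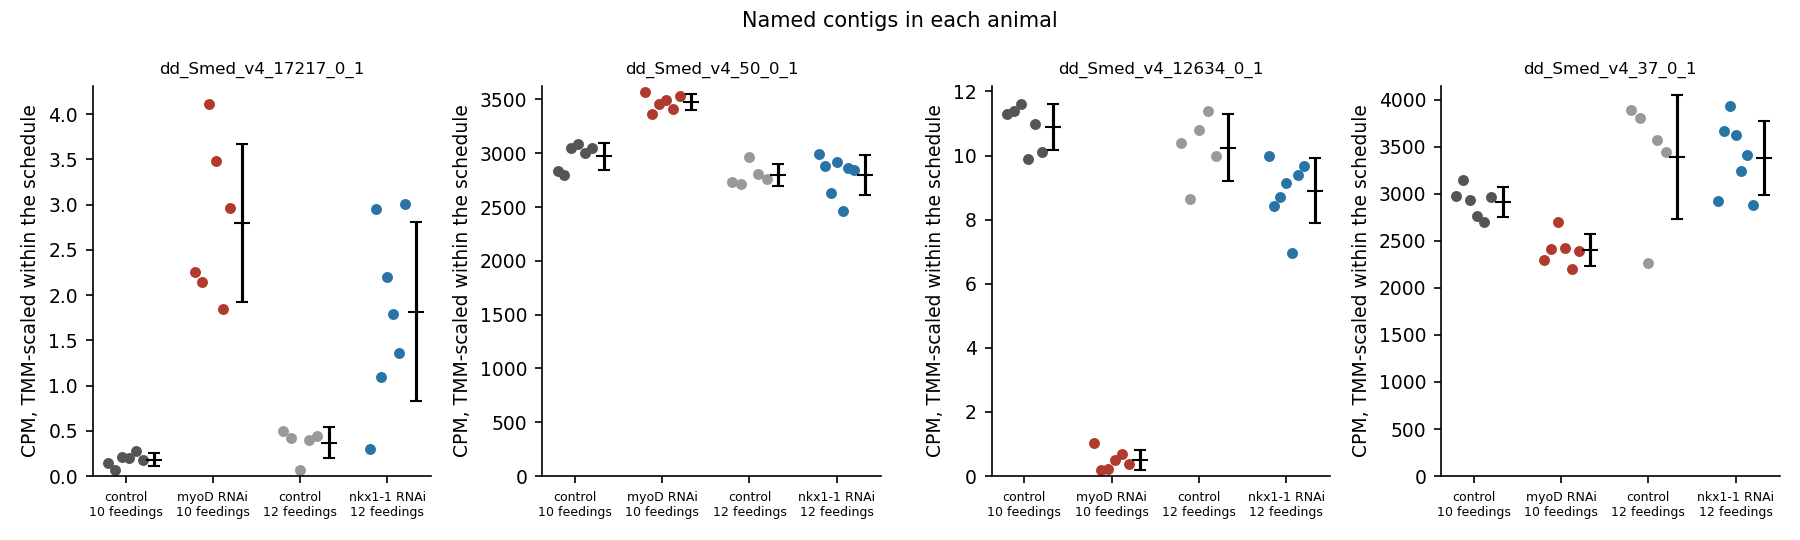
CPM of the 4 named contigs in each animal of both experiments, scaled within each feeding schedule, with the mean and SD beside each group. The fall of dd_Smed_v4_12634_0_1 to 0.201 to 1.03 CPM is seen in the myoD RNAi animals alone, while dd_Smed_v4_17217_0_1 is also high in 6 of the 7 nkx1-1 RNAi animals.

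Most changes were seen in most animals of the group. Every myoD RNAi animal lay beyond every control for 547 of the 844 rises and 194 of the 388 falls, where 4.86% of all tested contigs had no overlap, 3.49% above and 1.37% below the controls. In a further 190 rises and 114 falls, 5 of the 6 animals did. These counts follow in part from the call itself. A measure free of that choice came from leaving 1 number out of both groups, calling contigs on the remaining 10 libraries, and reading the direction in the pair of animals left out. The contigs called in this way numbered 913 to 1198. For replicate numbers 1 to 6 in turn, 95.1%, 95%, 91.9%, 95%, 83.8% and 91.4% of them had the same sign in the animals that had played no part in the call. Over all contigs tested the share was 55.8% to 61.9%.

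**Figure D4:**
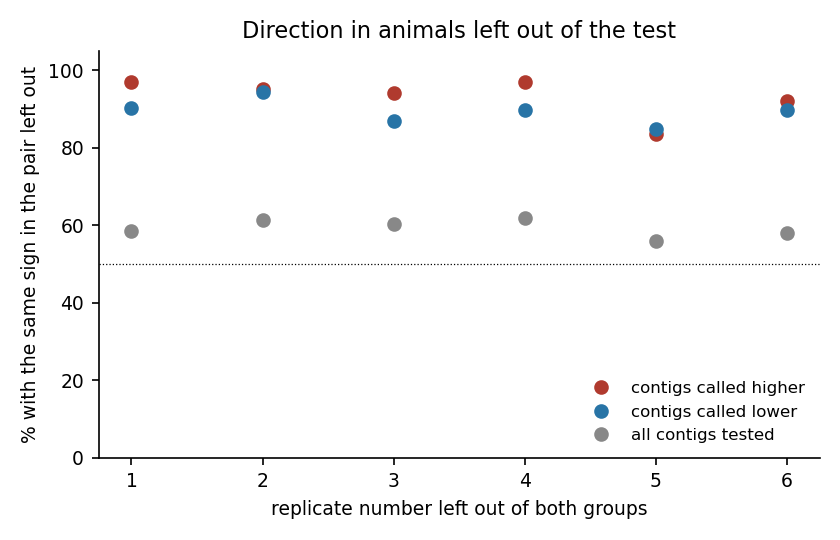
Share of contigs whose direction in a pair of animals left out of the test matched the direction in the other 10 libraries, for contigs called higher, called lower and all contigs tested. The called contigs lie between 83.4% and 97.0%, and all contigs between 55.8% and 61.9%.

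The size of the changes was also read in the animals left out. The median of the rises on the log2 scale was 0.33, 0.39, 0.37, 0.36, 0.21 and 0.32 for numbers 1 to 6, against 0.38 to 0.43 in the fits that called them. The median of the falls was −0.25, −0.34, −0.20, −0.28, −0.21 and −0.35, against −0.33 to −0.31 in those fits. Number 5 had the smallest median of the rises, 0.21 against 0.43 in its fit, and the lowest share with the same sign in both directions, 83.4% of rises and 84.8% of falls. Among the 94 contigs that rose at least 2-fold, myoD RNAi replicate 5 had the lowest level of its group for 43, and the other animals for 7 to 15 each. Its median distance above the control mean over these contigs was 1.06 on the log2 scale, against 1.26 to 1.34 in the others. Over all 388 contigs that fell, called with this animal included, its median was −0.32, and the others had −0.29 to −0.27.

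Taken over all rises or all falls of at least 2-fold, the median spread between animals was smaller in the group with the higher level. Within the falls this did not hold for the 9 without a called difference of effects, described below. For the contigs that rose at least 2-fold, the median SD of log2 CPM between animals was 0.39 in controls and 0.27 after myoD RNAi, and 23 of the 94 had the larger SD in the treated group. For the 17 that fell at least 2-fold the medians were 0.32 in controls and 0.59 after myoD RNAi, and 11 of the 17 had the larger SD in the treated group. Many of these contigs were scarce in the group where they were low, where counting error widens a log2 value, and its part in this difference was not tested. Over all tested contigs the medians were 0.13 and 0.13, with 50.4% larger after myoD RNAi.

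The large rises and falls were then read in the nkx1-1 RNAi animals. That experiment has control animals of its own, so its values are independent of the choice of contigs, although the targeted gene, the feedings, the weeks and the cohort cannot be told apart between experiments. There, 3.87% of contigs were called in all, 1.79% higher and 2.08% lower. Of the 94 large rises 88 were tested after nkx1-1 RNAi, and 45 of those (51.1%) were called higher and none lower (none lower at an unadjusted p under 0.05 either, by edgeR). Of the 17 large falls 16 were tested, and 1 (6.25%) was called lower. The large rises and falls not tested fell below the filter on low counts in that experiment. Contigs that were scarce there, after nkx1-1 RNAi as well, are thus left out of the shares here and below. The median log2 fold changes were 1.25 after myoD and 0.89 after nkx1-1 RNAi for the large rises, but −1.68 and −0.23 for the large falls. Over all contigs tested in both the medians were −0.01 and 0.00.

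The difference of the effects was tested directly on all 24 libraries, where 0.425% of contigs were called, 0.169% with the higher value for nkx1-1 and 0.256% with the lower. None of the 94 large rises was called, with adjusted p from 0.162 to 0.992 by edgeR, which does not show that the effects are equal. DESeq2 and voom also called 0. At an unadjusted p under 0.05 there were 22, all with the smaller effect for nkx1-1, and 82 of the 88 tested in both had the smaller log2 fold change after nkx1-1 RNAi. Of the 17 large falls 8 were called, with edgeR adjusted p from 4.61e-13 to 0.0217. This test shares the myoD libraries with the choice of contigs, which by itself favours a difference for the contigs chosen.

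The large falls are described next by whether a difference was called, a split that by itself favours low spread, no overlap and nkx1-1 values near 0 among the 8. The 8 with a called difference had no overlap between myoD RNAi and control animals in any case, and control means of 1.41 to 10.9 CPM. Their median SD was 0.14 log2 units among controls and 0.34 after myoD RNAi. Their log2 fold changes ran from −4.39 to −1.20 after myoD RNAi and from −0.27 to 0.10 after nkx1-1 RNAi. The other 9 were uneven among controls already, with a median SD of 0.75 log2 units, against 0.64 after myoD RNAi. Only 2 of these 9 had no overlap. In the 8 of them tested after nkx1-1 RNAi the log2 fold changes ran from −2.07 to −0.01, with a median of −1.21. Of all 16 large falls tested there, 81.2% were below 0. For comparison, the 10 leading falls named by the rule above had nkx1-1 values of −0.27 to 0.09 with 0 called lower by edgeR (2 at an unadjusted p under 0.05) and 8 differences called. The 10 leading rises had 9 tested, all 9 called higher, at log2 fold changes of 1.36 to 2.63, and 0 differences called by edgeR (3 at an unadjusted p under 0.05).

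**Figure D5:**
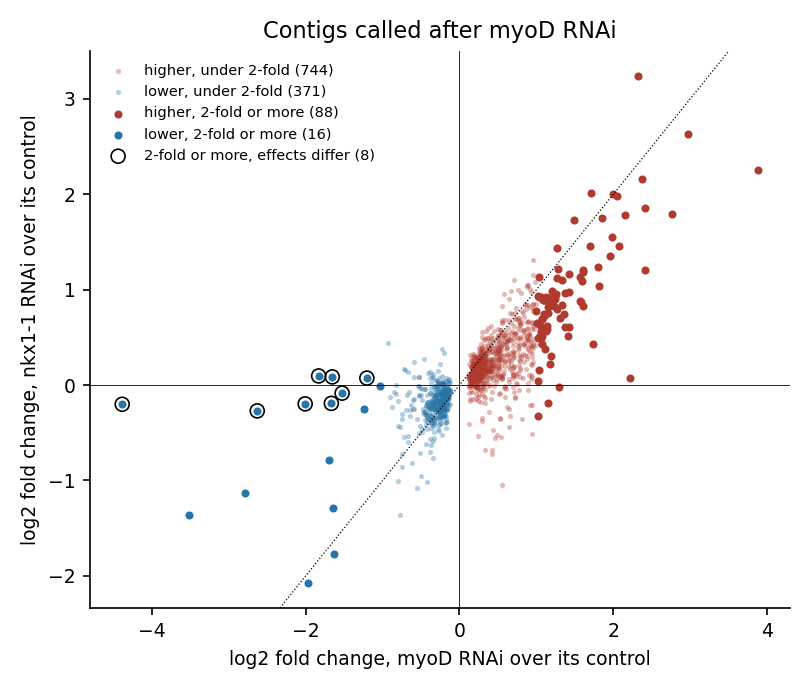
Log2 fold change after nkx1-1 RNAi against that after myoD RNAi, each over its own controls, for contigs called after myoD RNAi, with larger points for changes of at least 2-fold; the dotted line marks equal effects. Circles mark the 8 large falls with a called difference, which lie between −0.27 and 0.10 on the vertical axis, while 82 of the 88 large rises lie below the line of equal effects.

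The number of calls after nkx1-1 RNAi depended on single libraries, so these counts were read again without them. The 45 shared large rises became 30 to 59 when 1 library of that experiment was left out. There were 56 without both nkx1-1 RNAi replicate 1 and the 12-feeding control replicate 3, a pair left out after the data were seen. With the replicate number as a block, which uses only replicates 1 to 5 there, 3 were called, out of 12 contigs called in all. The count of differences among the large falls stayed between 7 and 8 when any 1 of the 24 libraries was left out, and that among the large rises stayed at 0. With the replicate block the count among the large falls was 6, and with a mean of at least 1 CPM it was 7.

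Of the named contigs, the leading rise by fold was shared with nkx1-1 RNAi and the leading fall by fold was not, while both abundant contigs had nkx1-1 values near 0. In the 12-feeding schedule dd_Smed_v4_17217_0_1 stood at 0.367 ± 0.172 CPM in controls (SD, n = 5) and at 1.82 ± 0.990 CPM after nkx1-1 RNAi (SD, n = 7), where replicate 1 at 0.301 CPM lay within the control range. The effects did not pass the test of a difference (−1.62 ± 0.72, SE; edgeR adjusted p = 0.337). The level of dd_Smed_v4_12634_0_1 was 10.2 ± 1.04 CPM in those controls and 8.91 ± 1.01 CPM after nkx1-1 RNAi, and a difference of effects of 4.19 ± 0.22 (SE) was called (edgeR adjusted p = 4.61e-13). The nkx1-1 values of the abundant contigs were 0.00 ± 0.06 (SE) for dd_Smed_v4_50_0_1 and −0.01 ± 0.12 (SE) for dd_Smed_v4_37_0_1 on the log2 scale. Their differences of effects, in the same order, were −0.22 ± 0.06 and 0.28 ± 0.13 (SE). Neither was called (edgeR adjusted p = 0.142 and 0.381, unadjusted p = 0.00238 and 0.0468). For dd_Smed_v4_37_0_1 the 12-feeding controls were themselves uneven, at 2261 CPM in replicate 3 and 3445 to 3889 CPM in the rest.

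Smaller changes were shared in part in both directions. Of 546 rises under 1.5-fold, 88.8% were also above 0 after nkx1-1 RNAi, 18.1% were called higher and 5 (0.916%) were called lower. Of 337 falls under 1.5-fold, 88.4% were also below 0, 16% were called lower and none was called higher. Over all contigs tested in both experiments 50.6% were above 0 and 49.4% below. Between 1.5-fold and 2-fold, 23.7% of 198 rises and 8.82% of 34 falls were called in the same direction. Differences of effects in that range were called for 3 of 204 rises (1.47%) and 8 of 34 falls (23.5%). Under 1.5-fold they were called for 15 of 546 rises (2.75%) and 3 of 337 falls (0.89%). Over all 16352 contigs tested after myoD RNAi the share was 0.446%. Here too the test of a difference shares the myoD libraries with the choice of contigs. Over all contigs tested in both experiments 1.76% were called higher and 2.13% lower after nkx1-1 RNAi.

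By the component number in their IDs, the tested contigs fell into 16224 components. Of these, 124 held more than 1 tested contig, 252 contigs in all, and 18 of the 124 had at least 1 call. Over all tested contigs 7.53% were called, and whether these components depart from that share was not tested. In 1 of the 18 several contigs were called, in none were calls opposite, and in 8 all contigs had the same sign. An adjusted p below 0.05 was given to 969 contigs in the authors' deposited table. Of these 77 were not tested here because of low counts, with 23 to 131 counts over the 12 libraries, and 74 of the 77 were higher after myoD RNAi in the authors' deposited table. The 889 contigs called in both all had the same sign. The 343 contigs called here alone had a median absolute change of 0.24 on the log2 scale, at most 3.52. Their median adjusted p was 0.107 in the authors' deposited table.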

How the data were processed

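Whole-number read counts per contig were deposited by the authors without normalization for 24 libraries. The authors also deposited a table of myoD RNAi against control with mean normalised signal, a fold ratio of the means and p-values, per the file headers. A stranded mRNA kit was used, per the labels' protocols. CASAVA, cutadapt 1.8, Bowtie 1.1.1, SAMtools and DESeq are named, without role or order, per the submitters' processing notes, while settings and counting strand are not given in the sources used.

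Counts were filtered with filterByExpr, scaled by TMM factors and tested with the quasi-likelihood F test of edgeR 4.0.16 in R 4.3.3, on the 12 libraries of the pair, with Benjamini-Hochberg adjustment. DESeq2 1.42.0, voom of limma 3.58.1, other scalings and filters, and fits without each library were alternatives. A log2 fold change's standard error is its size over the square root of F, and its 95% interval uses the fit's degrees of freedom. The log2 CPM values use a prior count of 2. All tests are two-sided.

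On simulated counts for this comparison of 16352 contigs, the share of seeded changes recovered was 80.6% at 1.5-fold, 91.0% at 2-fold and 95.5% at 4-fold. Of the calls 3.78% were false, and 95% of the intervals covered the true value. The seeded changes numbered 67, 67 and 66, in random directions. The counts were drawn from the kind of model that was then fitted, so these shares do not cover departures from it. Totals ran from 13459642 to 17375822 counts. Replicate libraries differed beyond sampling noise (chi-square per degree of freedom 4.18 to 20.1 where a pair had at least 10 counts). Replicates are single animals, per the labels.

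Of the contigs that were called, did not overlap between groups and averaged at least 1 CPM, those with the largest log2 fold change and the largest difference in CPM are named in each direction, 2 higher and 2 lower, because the files do not pair IDs with gene names. The members, rules and alternatives were chosen with earlier results of these data known. Planned lists of cell type markers were not applied.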

Additional observations from a re-analysis of the deposited data

Results flagged for a closer look

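Gap tests within the groups of 6 picked 3 of the 19 sets examined, and about 0.95 would be picked by chance. Control replicate 6 had 17375822 counts in all, more than the 13597429 to 14981573 of the other controls. Control replicate 4 had 15486 contigs at 1 CPM or more, against 15172 to 15279 in the other controls, and the difference in contigs detected was 249.8 without it. The pair of animals numbered 5 had the lowest share of called contigs with the same sign when left out, 83.8% against 91.4% to 95.1%. The effect on dd_Smed_v4_12634_0_1 differed between experiments by 4.19 on the log2 scale, higher for nkx1-1 than for myoD RNAi (edgeR adjusted p = 4.61e-13).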

How the results depend on the processing

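The count of 1232 contigs was within 1.5 times under 28 of 31 alternatives, 913 to 1266 when animals were left out, with 652 to 915 higher and 261 to 392 lower. It was 111 with a 2-fold minimum (94 higher, 17 lower), 59 tested against 1.5-fold (49 and 10) and 734 at an adjusted p under 0.01 (550 and 184). The share of rises was 66.6% to 73.7% under the other settings and 68.5% as reported, and the median of all contigs moved by under 0.1. The replicate block gave 1115 calls, and same-numbered libraries correlated at −0.196 to 0.169, and of the controls only replicate 4 correlated best with its own number, so the numbers are not taken as pairs. The 4 named contigs kept their direction under all 28 alternatives run for each, and only dd_Smed_v4_37_0_1 lost its call, in the joint fit (−0.29 log2, edgeR adjusted p = 0.0746; 1.12e-06 to 0.0746 over its alternatives). The 73 differences of effects became 149 with DESeq2 and 24 with the block, and 46 to 136 without 1 library. The 643 nkx1-1 calls became 1031 with DESeq2, 348 with total counts, 12 with the block and 214 to 947 without 1 library. Large rises shared with nkx1-1 fell from 45 to 3 with the block, and shared large falls from 1 to 0 with DESeq2, robust estimation and the block (0 to 1 without 1 library). The share of the 1000 most abundant contigs differed by 0.121 percentage points, and that of the 100 by −0.512 to 0.0157 without 1 library. The causes of these shifts were not tested. Depth limits scarce contigs such as dd_Smed_v4_17217_0_1, with 1 to 4 counts per control.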
